A study of Mus musculus with 6 samples.

Results

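Kinesins are motor proteins that use ATP to move along microtubules or to take tubulin off their ends. Some work only while a cell divides, when they push spindle poles apart, move chromosomes and build the midzone that guides cytokinesis. Others carry vesicles, organelles and ciliary components in cells at any stage, and in growth cartilage the primary cilium that they supply takes part in hedgehog signalling. The kinesin genes were taken from the gene table by symbol, as Kif followed by a number and at most 1 letter a to c, or Kifc followed by a digit. This gave 40 of 17666 genes, 11 named as mitotic (Kif2c, Kif4, Kif11, Kif14, Kif15, Kif18a, Kif20a, Kif20b, Kif22, Kif23 and Kifc1) and 29 others. The rule goes by symbol and uses no measured value, but it was chosen with earlier results of these data known.

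RNA was sequenced from mouse chondrocytes of 3 Ppp1r15b knockout (KO) and 3 control (WT) samples. KO cells came from newborn (P0) mice labelled Ppp1r15bPrx1;Rosa26mT/mG and WT cells from P0 mice labelled Prx1-Cre;Rosa26mT/mG, so that both groups carried Prx1-Cre and the reporter. The Prx1 promoter drives Cre in the mesenchyme of the early limb bud, and the reporter switches to GFP in cells that have had Cre. GFP-positive progenitors were sorted from digested knee joints. The growth protocol adds culture until maturation, a step that the series' design text does not mention. Ppp1r15b encodes CReP, a regulatory subunit of the phosphatase that acts on the translation factor eIF2alpha. Neither separate animals nor pooling is stated for the replicates, so a p-value here reflects only how far these samples scatter, and that scatter could be technical.

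The KO libraries held 18478991, 18380880 and 19581607 estimated counts and the WT libraries 19643951, 18854890 and 18757808. Levels of 1 gene across libraries are given as CPM, counts scaled to library size. Ppp1r15b had 19.3, 23.5 and 27.5 CPM in KO replicates 1 to 3, against 86.8, 52.2 and 89.2 CPM in WT replicates 1 to 3. KO replicate 3 stood apart from its group. Its log2 CPM values over all tested genes correlated at 0.935 with KO replicate 1 and 0.934 with KO replicate 2, whereas KO replicates 1 and 2 correlated at 0.993. WT replicate 2 also stood somewhat apart, at 0.982 with WT replicates 1 and 3, which correlated with each other at 0.994. Results are therefore given with and without KO replicate 3. The 16 chondrocyte markers, Col2a1 and Acan among them, summed to 41451, 42981 and 41966 CPM in KO libraries and 40280.5, 50250 and 37382 CPM in WT libraries. Most of it was Col2a1. Of the 16 genes, 2 (Col11a2 and Col9a2) rose by edgeR with all 6 libraries, beside 0.884% of all tested genes, and 5 rose without KO replicate 3, beside 12.5%. In 6 of the 16 every KO library lay above every WT library, beside 14% of all tested genes.

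The mitotic kinesins split the KO libraries. In KO replicates 1 and 2 all 11 lay below every WT library, at 29.1% to 39.4% of the WT mean in KO replicate 1 and 29.5% to 39.7% in KO replicate 2. In KO replicate 3 all 11 lay above every WT library, at 108% to 148% of the WT mean. The single WT libraries ran from 82.1% to 117%. With all 6 libraries 0 of 11 mitotic kinesins passed the edgeR test at an adjusted p under 0.05, 0 of 11 had an unadjusted p under 0.05, and DESeq2 also called 0. In that edgeR fit 1.63% of all tested genes fell, and DESeq2 called 674 of 13692 lower. Without KO replicate 3, 11 of 11 fell, beside 16.1% of all tested genes.

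**Figure D1:**
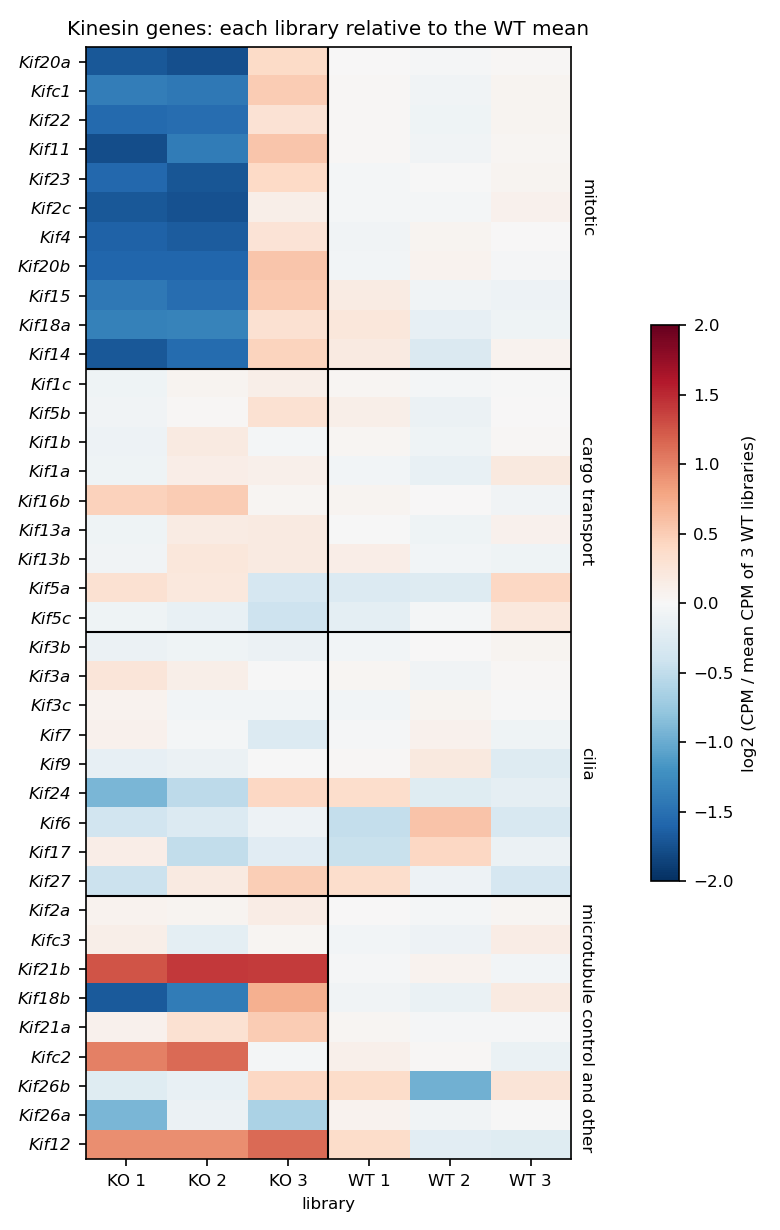
Level of each of the 38 tested kinesin genes in each library, as log2 of its CPM over the mean CPM of the 3 WT libraries (blue lower, red higher), grouped by role. The 11 mitotic kinesins are blue in KO replicates 1 and 2 and red in KO replicate 3, and Kif21b is red in all 3 KO libraries.

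Of the 40 kinesin genes, 38 passed the low-count filter and were among the 13692 genes tested. All 11 mitotic kinesins and 27 of the 29 others passed. Kif19a, which shortens cilia, had 6 to 9 counts per KO library and 8 to 16 per WT library. Kif28, a little characterised gene, was at 0 in 5 libraries and had 2 counts in WT replicate 3.

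Levels of different genes were compared in TPM, which are scaled by depth and by transcript length. The most abundant kinesin was Kif1c, a motor of dense-core and integrin vesicles, at a mean of 78.0 TPM over the 6 libraries. Kif5b, the ubiquitous conventional kinesin heavy chain, followed at 48.0 TPM and Kif20a at 45.3 TPM. The order of these neighbours did not hold in every library, since Kif20a had 73.8 TPM in KO replicate 3 against 58.8 TPM for Kif5b, and 16.9 TPM in KO replicate 1 against 43.4 TPM for Kif5b. Kif1b, a motor of mitochondria and lysosomes, had 33.3 TPM and the microtubule depolymerase Kif2a 32.4 TPM, a difference smaller than their spread between libraries. The heavy chains enriched in neurons, Kif5a and Kif5c, stood at 1.42 and 1.41 TPM.

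Summed over the 11 genes, mitotic kinesins came to 69.1, 70.7 and 283 TPM in KO libraries and 214, 196 and 217 TPM in WT libraries. They made up 16.7%, 15.3% and 40.9% of all kinesin TPM in KO replicates 1 to 3, against 36.8%, 37.6% and 37.5% in WT replicates 1 to 3. The cilium-related kinesins, 10 genes, summed to 59.3 ± 1.33 TPM in KO and 59.3 ± 0.302 TPM in WT (SD, n = 3 each). The 9 cargo kinesins summed to 194, 234 and 235 TPM in KO libraries and 221, 190 and 212 TPM in WT libraries, and these groups overlapped. In bulk RNA, fewer cells of a kind and less RNA per cell cannot be told apart.

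Among motors that keep the spindle bipolar, Kif11 (Eg5), a tetramer that slides antiparallel microtubules apart, had 12.9, 16.8 and 65.2 CPM in KO libraries and 45.2, 42.4 and 45.7 CPM in WT libraries. Kif15, which backs up Kif11, had 5.32, 4.99 and 20.5 CPM in KO libraries and 16.0, 13.5 and 13.3 CPM in WT libraries. Kifc1 (HSET), a minus-end motor that clusters spindle poles, had 11.4, 11.02 and 42.5 CPM in KO libraries and 30.1, 28.3 and 30.9 CPM in WT libraries. For each of these genes the KO libraries lay on both sides of the WT libraries. The gene Kifc5b is a near copy of Kifc1, with 53, 58 and 299 counts in KO libraries and 149, 114 and 130 in WT libraries, and how reads were split between them makes the level of Kifc1 uncertain.

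Chromosome motors had the same split. Kif22 (Kid), a chromokinesin that binds DNA, had 9.02, 9.21 and 32.5 CPM in KO libraries and 26.9, 25.2 and 27.6 CPM in WT libraries. Kif4, a chromokinesin of chromosome arms and the midzone, had 7.77, 7.46 and 28.8 CPM in KO libraries and 22.6, 24.6 and 23.9 CPM in WT libraries. Kif2c (MCAK), which shortens microtubules at centromeres, had 7.498, 7.29 and 26.3 CPM in KO libraries and 23.6, 23.7 and 25.8 CPM in WT libraries. In KO replicate 3 Kif2c was closest to the WT level, at 108% of the WT mean. Kif18a, which dampens chromosome movements at the metaphase plate, was among the least abundant, at 2.499, 2.52 and 7.81 CPM in KO libraries and 7.42, 5.66 and 5.97 CPM in WT libraries.

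For the motors of cytokinesis the KO libraries again fell on both sides. Kif20a (MKLP2), which brings the chromosomal passenger complex to the midzone, had 26.7, 25.4 and 112 CPM in KO libraries and 86.4, 84.5 and 87.0 CPM in WT libraries. Kif23 (MKLP1), the motor subunit of centralspindlin, had 10.2, 9.21 and 39.7 CPM in KO libraries and 29.3, 29.9 and 31.2 CPM in WT libraries. The spread of Kif20a within a group was 49.7 CPM in KO and 1.28 CPM in WT (SD, n = 3 each), around means of 54.7 and 86.0 CPM. Kif20b, a motor of abscission, had 6.25, 6.25 and 27.6 CPM in KO libraries and 17.9, 19.64 and 18.5 CPM in WT libraries. Kif14, which acts with citron kinase, had 3.21, 3.56 and 14.1 CPM in KO libraries and 11.6, 8.49 and 10.9 CPM in WT libraries.

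**Figure D2:**
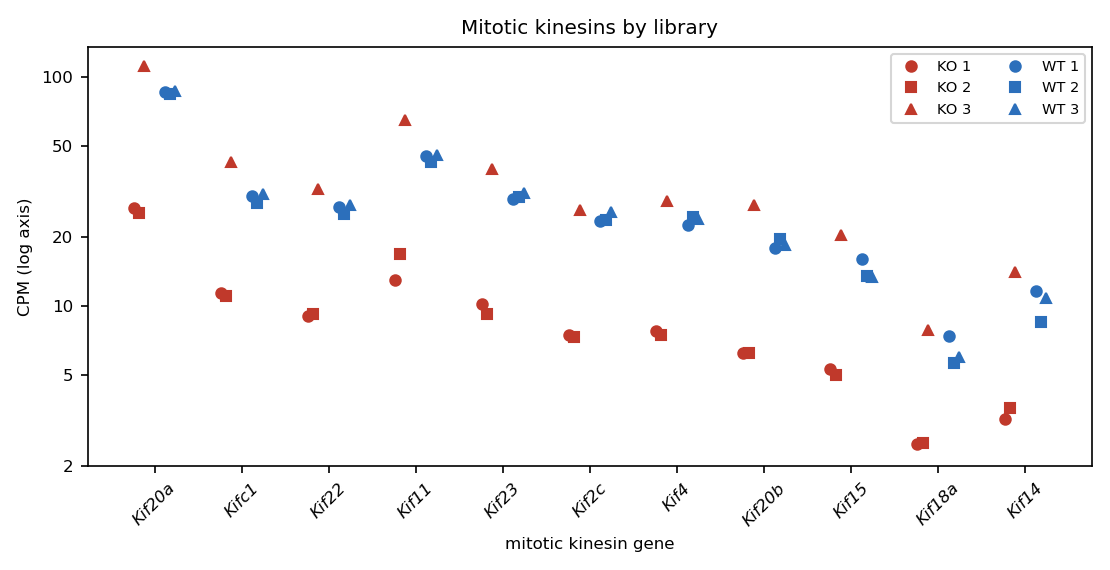
CPM (log axis) of the 11 mitotic kinesins in each library, with KO in red left of WT in blue and replicates 1 to 3 as circle, square and triangle. For every gene the KO circle and square lie below the 3 WT points and the KO triangle above them, as for Kif20a at 26.7, 25.4 and 112 CPM against 84.5 to 87.0 CPM.

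With all 6 libraries the fitted log2 fold changes of the mitotic kinesins, KO over WT, ran from -0.83 for Kif2c to -0.46 for Kifc1, with a median of -0.57 against 0.01 for all tested genes. Their SEs were 0.482 to 0.600 and their edgeR adjusted p 0.443 to 0.727. In this fit 2.51% of all tested genes were called in either direction. Without KO replicate 3 the log2 fold changes of the same 11 genes ran from -1.72 for Kif20a to -1.33 for Kif18a, with edgeR adjusted p of 2.33e-05 to 0.00261. That fit called 28.5% of all genes in either direction, and the common dispersion was 0.00829 in place of 0.0525. The median was -1.58 for mitotic kinesins and -0.00 for all 13880 genes tested. Kif20a had the third smallest p of those 13880 genes in this fit, where its log2 fold change had an SE of 0.0622.

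The makeup of the mitotic kinesin pool varied far less than its size. Kif20a made up 24.4%, 23.6% and 26.1% of summed mitotic kinesin TPM in KO libraries and 26.3%, 26.6% and 25.9% in WT libraries. Kifc1 held 16.1%, 15.6% and 15.4% in KO libraries and 13.98%, 13.4% and 14.3% in WT libraries. Kif2c held 8.46%, 8.38% and 7.55% in KO libraries and 8.84%, 9.17% and 9.46% in WT libraries. The KO share of Kifc1 was above, and that of Kif2c below, every WT share. For all other mitotic kinesins the KO and WT shares overlapped. The share of Kifc1 is as uncertain as its level, given the reads split with Kifc5b.

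Kif18b, which controls astral microtubules in mitosis and falls outside the 11 by the rule, went the same way. It had 6.36, 7.73 and 33.4 CPM in KO libraries and 19.4, 18.6 and 23.1 CPM in WT libraries. Its log2 fold change was -0.36 (SE 0.632, edgeR adjusted p = 0.813) with all libraries and -1.53 (SE 0.143, adjusted p = 0.000364) without KO replicate 3. It was the only one of the 28 other kinesins tested without that library that fell.

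Many genes of the late cell cycle carry in their promoters the CHR element (TTTGAA or TTTAAA), bound by the DREAM and MuvB complexes, and the CCAAT box, bound by NF-Y. The promoters of the mitotic kinesins were therefore read for these motifs, but the part of the motifs in the levels was not tested. RefSeq promoter sequences (build GRCm38.p6, 250 bases before to 50 after the first listed start) were at hand for 31 of the 40 kinesin genes, 10 of them mitotic. The listed start can lie inside the gene, as for Kif14 and Kif2c, 1547 and 3852 bases from the gene's outer end, so only the 8 mitotic and 18 other kinesins whose start lies within 500 bases of that end were used. The lines below give 100 bases before to 50 after the start, 5′ to 3′ on the gene's strand, with capitals for the CCAAT box and both forms of the CHR element on either strand. A box on the other strand reads ATTGG here, and the first form of the element then reads TTCAAA. They are the 5 of these mitotic kinesins whose window holds both kinds of motif, and Kif18b, whose level moved as theirs did. Kif15, Kif18a and Kif20b, whose levels moved in the same way, hold no CCAAT box in their windows and are not printed. Kif26b is not printed but holds both as well, a box 73 and an element 9 bases before the start. The level of Kif26b did not move as those of the mitotic kinesins did, with a log2 fold change of 0.04 with all libraries and -0.20 without KO replicate 3.
Kif11 (chr19:37376282-37376431, plus strand): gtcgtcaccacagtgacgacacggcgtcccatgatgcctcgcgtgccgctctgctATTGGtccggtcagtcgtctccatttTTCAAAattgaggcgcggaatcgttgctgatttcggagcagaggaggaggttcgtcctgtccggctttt
Kifc1 (chr17:33890584-33890733, minus strand): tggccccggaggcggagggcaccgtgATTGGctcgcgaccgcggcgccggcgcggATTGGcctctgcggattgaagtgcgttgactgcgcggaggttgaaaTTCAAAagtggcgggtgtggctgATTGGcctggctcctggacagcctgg
Kif22 (chr7:127042371-127042520, minus strand): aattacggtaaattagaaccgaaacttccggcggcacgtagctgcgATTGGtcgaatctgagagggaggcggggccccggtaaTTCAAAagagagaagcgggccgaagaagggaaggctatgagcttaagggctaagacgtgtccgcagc
Kif4 (chrX:100625965-100626114, plus strand): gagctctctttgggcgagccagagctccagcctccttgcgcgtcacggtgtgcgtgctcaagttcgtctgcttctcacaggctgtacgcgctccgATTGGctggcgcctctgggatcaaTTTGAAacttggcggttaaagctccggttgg
Kif23 (chr9:61946750-61946899, minus strand): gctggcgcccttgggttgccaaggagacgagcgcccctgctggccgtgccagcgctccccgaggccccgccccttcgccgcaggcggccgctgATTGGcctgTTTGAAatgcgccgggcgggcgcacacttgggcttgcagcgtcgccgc
Kif18b (chr11:102925075-102925224, minus strand): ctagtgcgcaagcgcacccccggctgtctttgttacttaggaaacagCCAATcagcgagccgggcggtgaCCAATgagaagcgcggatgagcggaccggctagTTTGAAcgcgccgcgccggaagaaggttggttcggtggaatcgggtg
In Kif11 the box begins 45 bases before the start and the CHR element 19 bases before it. In Kif22 they begin 54 and 17 bases before the start. In Kif23, Kif4, Kifc1 and Kif18b the element begins within 20 bases after the start, with a box upstream of it.

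Over these 300-base windows and on either strand, TTTGAA was found in 7 of 8 mitotic kinesin promoters (87.5%), in 2 of 18 other kinesin promoters (11.1%) and in 18.5% of the 24237 RefSeq windows chosen in the same way. The exception among the mitotic genes was Kif18a, and the other kinesins with it were Kif18b and Kif26b. CCAAT was in 5 of 8 mitotic promoters, in 6 of 18 others (33.3%) and in 38.1% of all such windows. A CCAAT together with TTTGAA or TTTAAA, which do not overlap each other, was in 5 of 8 mitotic promoters, 2 of 18 others and 11.02% of all such windows. GCGGGAA, an E2F-type sequence, was in 0 of 8 mitotic promoters, 2 of 18 others and 4.55% of all such windows. A match is a description of letters, not of a bound site.

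Kif21b was the only kinesin that passed the test with all 6 libraries, 1 of 38, where 0.884% of all genes were called higher. Kif21b (Entrez gene 16565, chr1:136131390-136178001 in GRCm38.p6) encodes a kinesin-4 that pauses microtubule growth and is best known from neurons and T cells. It had 74.3, 82.4 and 81.5 CPM in KO libraries and 30.7, 32.4 and 29.9 CPM in WT libraries. All 3 KO libraries, replicate 3 included, stood far above all 3 WT libraries. The means were 79.4 ± 4.44 CPM in KO and 31.0 ± 1.30 CPM in WT (SD, n = 3 each), a ratio of 2.56. Per length it had 19.5 ± 1.52 TPM in KO and 7.44 ± 0.155 TPM in WT.

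The log2 fold change of Kif21b was 1.36 (SE 0.0732, edgeR adjusted p = 0.0112), and its p was the smallest of the 13692 genes tested. Without KO replicate 3 it was 1.34 (adjusted p = 4.29e-05), and 22 of the 13880 genes had a smaller p. The adjusted p was 0.0755 with KO replicate 1 left out and 0.0812 with KO replicate 2 left out. It was 0.0892 when WT replicate 1 was dropped and 0.104 when the WT library numbered 3 was dropped. The log2 fold change stayed at 1.33 to 1.41. In each of those fits 0 of all genes were called. Only 1 Kif21b transcript is in the transcript table.

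Markers of the cells best known for Kif21b were measured as well. The 4 lymphocyte markers in the table (Cd3e, Cd4, Cd8a and Cd79a) summed to 0.598, 0.274 and 1.04 CPM in KO libraries and 0.661, 0.544 and 0.533 CPM in WT libraries, and Cd3e was at 0 in 5 of 6 libraries. The 9 neuron markers summed to 45.1, 50.9 and 36.8 CPM in KO libraries and 35.3, 36.3 and 36.0 CPM in WT libraries, so that every KO library lay above every WT library. Most of that was Map2, at 36.3, 41.5 and 26.7 CPM in KO libraries and 23.1, 22.0 and 22.9 CPM in WT libraries. Of the 4 neuron markers tested (Map2, Stmn2, Syt1 and Tubb3), 0 passed by edgeR and 1 was called higher by DESeq2 with all libraries. DESeq2 called 497 of all 13692 tested genes higher. When KO replicate 3 was left out, Map2 rose, with a log2 fold change of 0.78 (edgeR adjusted p = 0.000493), and Stmn2 fell, with one of -1.60 (edgeR adjusted p = 0.0179). The other 5, Rbfox3, Snap25, Elavl3, Elavl4 and Nefl, had at most 6 counts in any library. The part of such cells in the level of Kif21b was not tested.

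**Figure D3:**
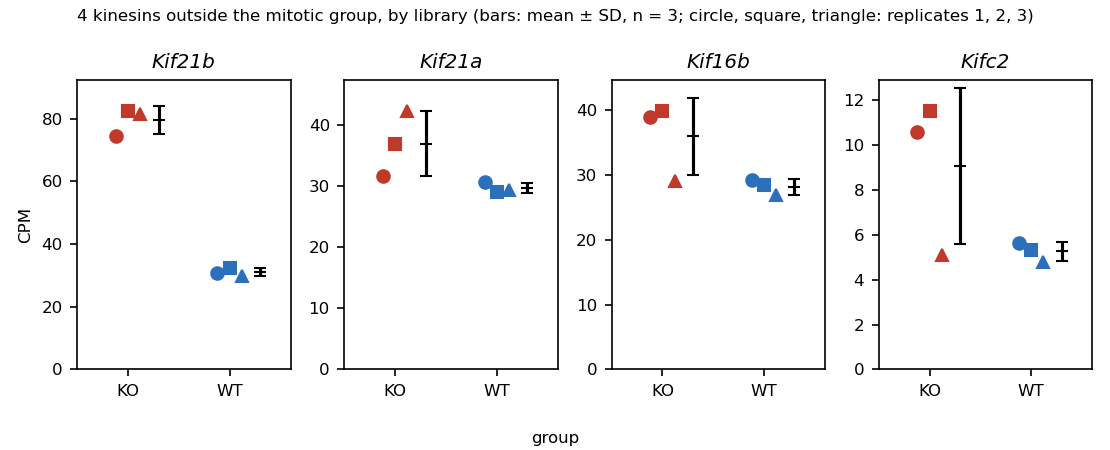
CPM of Kif21b, Kif21a, Kif16b and Kifc2 in each library (linear axes from 0, replicates 1 to 3 as circle, square and triangle, bars mean ± SD, n = 3 per group). The 3 KO points of Kif21b lie at 74.3 to 82.4 CPM, above the WT points at 29.9 to 32.4 CPM, whereas Kif16b and Kifc2 of KO replicate 3 lie at or near the WT level.

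The paralogue Kif21a, which pauses microtubule growth at the cell cortex, had 31.6, 36.9 and 42.3 CPM in KO libraries and 30.7, 29.1 and 29.4 CPM in WT libraries. The groups did not overlap, but the log2 fold change of 0.31 did not pass (SE 0.116, edgeR adjusted p = 0.220). Kif12, an epithelial kinesin of kidney and liver, was close to the detection limit with 11, 11 and 14 counts in KO libraries and 8, 5 and 5 in WT libraries, and its log2 fold change of 0.99 did not pass (adjusted p = 0.187).

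Kifc2 and Kif16b were high in KO replicates 1 and 2 only. Kifc2, a minus-end motor known from neurons, had 10.6, 11.5 and 5.09 CPM in KO libraries and 5.64, 5.33 and 4.79 CPM in WT libraries. Kif16b, an early endosome motor, had 39.0, 39.9 and 29.1 CPM in KO libraries and 29.2, 28.5 and 26.8 CPM in WT libraries. KO replicate 3 lay among the WT libraries for both genes. With all libraries the log2 fold changes were 0.78 for Kifc2 and 0.35 for Kif16b (edgeR adjusted p = 0.254 and 0.232). Without KO replicate 3 both rose, by 1.07 (adjusted p = 0.00117) for Kifc2 and 0.49 (adjusted p = 0.00147) for Kif16b, beside Kif21b and 12.5% of all genes. In all, 5 of 38 kinesins had an unadjusted p under 0.05 with 6 libraries, against 19.2% of all genes, and all 5 (Kif21b, Kif21a, Kif16b, Kifc2 and Kif12) were higher in KO.

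Of the 27 kinesins tested outside the mitotic group, 20 had a log2 fold change within 0.25 of 0, beside 63.3% of all tested genes, and the median was 0.04. A small fold change can hide a spread within the groups, as for Kif24 and Kif26b, given further on. Kif1c had 194, 215 and 223 CPM in KO libraries and 213, 202 and 206 CPM in WT libraries (log2 fold change 0.03, edgeR adjusted p = 0.884). Kif5b had 119.8, 127 and 156 CPM in KO libraries and 136, 115 and 126 CPM in WT libraries (log2 fold change 0.10, adjusted p = 0.736). For both of these abundant cargo motors the groups overlapped, and the sign of the fold change turned to -0.01 and -0.02 without KO replicate 3.

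In 6 of these 27 genes the groups did not overlap, which is 22.2%, against 28.4% of all tested genes. KO was higher for Kif21b, Kif12, Kif21a and Kif2a, and lower for Kif26a and Kif3b. Kif2a had 49.9, 49.2 and 52.8 CPM in KO libraries and 47.9, 46.0 and 48.6 CPM in WT libraries (log2 fold change 0.09, edgeR adjusted p = 0.494). Kif26a, a motor-like protein without ATPase activity, had 1.41, 2.47 and 1.73 CPM in KO libraries and 2.80, 2.56 and 2.66 CPM in WT libraries (log2 fold change -0.51, adjusted p = 0.357). Apart from Kif21b none of these differences passed. Kif26b, a relative of Kif26a in limb and kidney mesenchyme, had 16.4, 17.6 and 26.1 CPM in KO libraries and 25.1, 10.1 and 23.3 CPM in WT libraries, so that WT replicate 2 was the lowest of the 6.

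**Figure D4:**
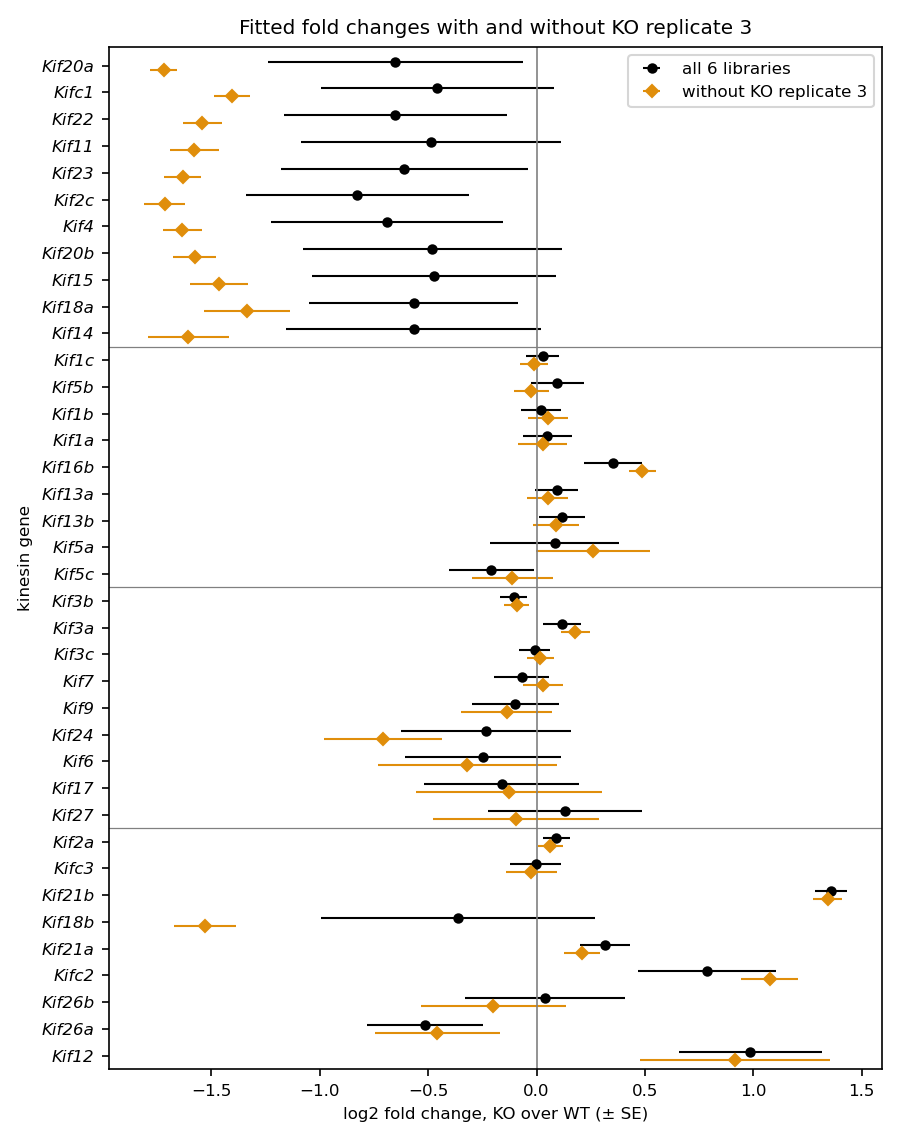
Fitted log2 fold change (KO over WT, ± SE) of the 38 tested kinesins with all 6 libraries (black circles) and without KO replicate 3 (orange diamonds), grouped as mitotic, cargo, cilia and other from the top. The mitotic kinesins and Kif18b shift left to between -1.72 and -1.33 without that library, and Kif21b stays at 1.36 and 1.34.

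Heterotrimeric kinesin-2 drives anterograde transport in cilia. Its motor subunit Kif3a had 42.2, 38.7 and 35.5 CPM in KO libraries and 36.8, 34.2 and 36.4 CPM in WT libraries (log2 fold change 0.12, edgeR adjusted p = 0.519). Kif3b had 39.8, 40.7 and 39.5 CPM in KO libraries and 41.4, 43.2 and 44.5 CPM in WT libraries (log2 fold change -0.10, adjusted p = 0.425). The third subunit, Kifap3, had 53.2, 55.6 and 54.1 CPM in KO libraries and 68.4, 64.4 and 67.3 CPM in WT libraries. Kifap3 and Kif3b were lower in every KO library than in any WT library, but with all libraries neither passed, Kifap3 at -0.30 (adjusted p = 0.0644). Kifap3 passed without KO replicate 3, at -0.29 (adjusted p = 0.0120). Kif7, the kinesin of the cilium tip that acts on Gli factors, had 17.1, 15.7 and 13.3 CPM in KO libraries and 15.9, 17.1 and 15.2 CPM in WT libraries, with a log2 fold change of -0.07 that became 0.03 without KO replicate 3. Kif24, a centriolar depolymerase, had 2.01, 2.63 and 5.04 CPM in KO libraries and 4.83, 3.21 and 3.36 CPM in WT libraries. Its KO libraries lay on both sides of the WT libraries, as those of the mitotic kinesins did. Its log2 fold change was -0.23 with all libraries and -0.71 without KO replicate 3, and neither passed (edgeR adjusted p = 0.804 and 0.0907).

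Genes that work with these motors were counted in lists. Of 20 intraflagellar transport genes, 7 tested hedgehog genes around Kif7, 19 light chains and adaptors, and 19 dynein and dynactin genes, 0 rose and 0 fell with all 6 libraries by edgeR. Their median log2 fold changes were -0.03, 0.19, 0.08 and -0.05 in that order, against 0.01 over all genes. DESeq2 called 3 dynein and dynactin genes and 1 adaptor lower, beside 674 of all 13692 tested genes. Without KO replicate 3, Ift172 rose and Ift80 and Wdr35 fell among transport genes, Smo rose among hedgehog genes, Mapk8ip3 rose and Kifap3 fell among light chains and adaptors, and 4 dynein and dynactin genes (Dctn5, Dync1i2, Dynll1 and Nde1) fell. These counts stand beside 12.5% of all genes called higher and 16.1% called lower in that fit.

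The 25 spindle partners and proliferation genes followed the mitotic kinesins. With all libraries 0 of 25 passed in edgeR, with a median log2 fold change of -0.53, and without KO replicate 3 24 of 25 fell, the exception being Numa1, beside 16.1% of all tested genes. Cenpe, a kinetochore kinesin whose symbol lies outside the Kif names, had 12.9, 12.8 and 44.1 CPM in KO libraries and 33.2, 35.9 and 35.2 CPM in WT libraries. Mki67, a marker of cycling cells, had 47.5, 57.0 and 211 CPM in KO libraries and 153, 149 and 159 CPM in WT libraries. Summed, the list stood at 44.3%, 44.4% and 138% of the WT mean in KO libraries, beside 32.7%, 33.0% and 133% for the mitotic kinesins.

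Of 12 tubulins, the building blocks of the track, 2 fell with all libraries, beside 1.63% of all tested genes. The count was 1 with DESeq2 size factors or library size only as the scaling, beside 214 and 192 of all 13692 tested genes. It was also 1 with no filter beyond 1 count, beside 190 of 17639, and with robust quasi-likelihood, beside 200 of 13692. It stayed at 2 with limma-voom, beside 176 of 13692, and with at least 1 CPM in all 6 libraries, beside 148 of 12134. The DESeq2 Wald test gave a count of 3, beside 674 of all tested genes. The edgeR count was 0 when any 1 library other than KO replicate 3 was left out. In those fits 0 of all genes were called, except without WT replicate 2, where 139 of 13911 fell. Tuba1a had 466, 455 and 335 CPM in KO libraries and 797, 814 and 869 CPM in WT libraries (log2 fold change -0.98, edgeR adjusted p = 0.0313). Tubb4a had 1.96, 1.32 and 1.33 CPM in KO libraries and 4.37, 3.48 and 4.53 CPM in WT libraries (log2 fold change -1.42, adjusted p = 0.0496). Both were low in all 3 KO libraries, unlike the mitotic kinesins. Without KO replicate 3, 10 of 12 fell, beside 16.1% of all genes.

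**Figure D5:**
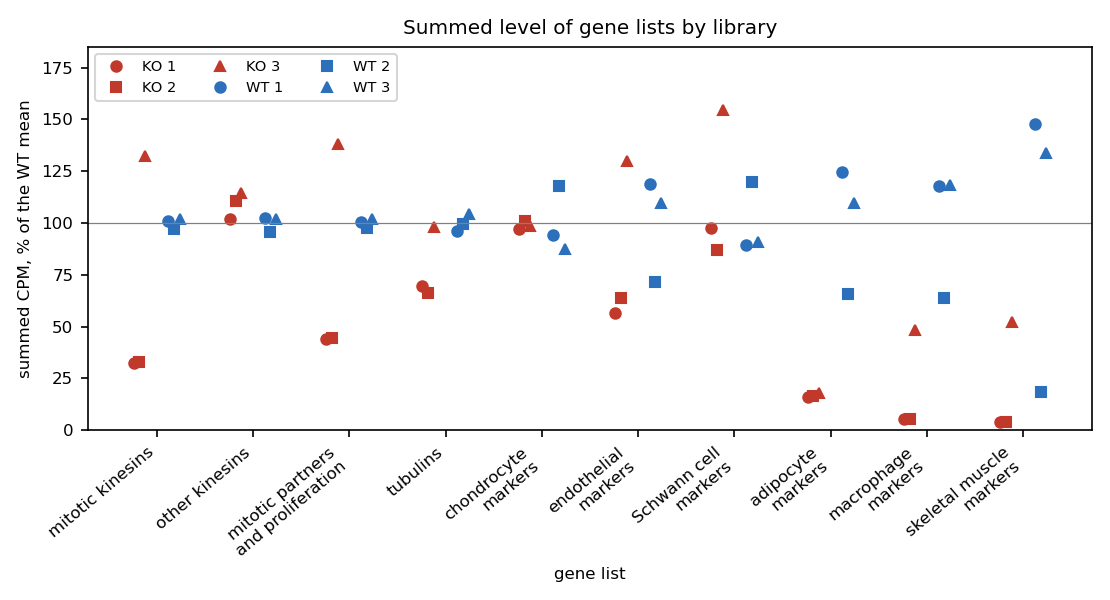
Summed CPM of each gene list in each library as a percent of the mean of the 3 WT libraries, with KO in red left of WT in blue and replicates 1 to 3 as circle, square and triangle. Mitotic kinesins (32.7%, 33.0% and 133% in KO) and their partners split the KO libraries. The sums of endothelial and of Schwann cell markers are highest in KO replicate 3, though not every gene in them is. Adipocyte markers are low in all 3 KO libraries, and muscle and macrophage markers also vary within groups.

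Markers of other cell types also varied with KO replicate 3, and the macrophage and adipocyte lists were lower in all 3 KO libraries. The 12 macrophage markers summed to 16.6, 16.6 and 150.2 CPM in KO libraries and 365, 198 and 367 CPM in WT libraries, with Aif1 at 0 in 4 libraries. Of the 11 tested, 10 were lower in every KO library than in any WT library, beside 14.5% of all tested genes. By edgeR 2 of the 11 fell with all libraries, beside 1.63%, and 11 of 11 fell without KO replicate 3, beside 16.1%. The 13 skeletal muscle markers summed to 22.9, 22.9 and 300.5 CPM in KO libraries and 852, 105 and 772 CPM in WT libraries, with Pax7 at 0 in 4 libraries. Of the 12 muscle markers tested, 0 separated the groups and 0 passed with all libraries. Without KO replicate 3, 11 of the 12 fell, with a median log2 fold change of -4.84, beside 16.1% of all genes. The 8 endothelial markers summed to 6.95, 7.79 and 15.9 CPM in KO libraries and 14.5, 8.76 and 13.4 CPM in WT libraries. In this sum KO replicate 3 was the highest library and KO replicates 1 and 2 the lowest. The median log2 CPM of the tested genes (0.5 added) was 0.914 in KO replicate 3, against 1.25, 0.272 and 0.994 in WT libraries. Unlike for the mitotic kinesins, therefore, not every gene of this list was highest in KO replicate 3. Of the 7 endothelial markers tested, 0 passed with all libraries and 4 (Cdh5, Kdr, Pecam1 and Tie1) fell without KO replicate 3, beside 16.1% of all genes. The 6 Schwann cell markers, mostly S100b, which chondrocytes also express, summed to 116, 104 and 184.7 CPM in KO libraries and 106, 143 and 108 CPM in WT libraries. This sum was highest in KO replicate 3. The median log2 CPM of the tested genes was not, at 2.78 in KO replicate 3 against 2.99, 1.13 and 2.99 in WT libraries. Of the 5 tested, 0 passed with all libraries and 3 fell without KO replicate 3, beside 16.1% of all genes. Sox10, which defines that lineage, was at 0 in KO replicates 1 and 2 and had 6.38 CPM in KO replicate 3, against 7.47, 1.63 and 7.56 CPM in WT libraries. The 11 adipocyte markers summed to 142, 147 and 160.3 CPM in KO libraries and 1117, 590.3 and 985 CPM in WT libraries, and did not set KO replicate 3 apart. Of the 10 tested, 9 were lower in every KO library than in any WT library, beside 14.5% of all tested genes. With all libraries 8 of the 10 fell by edgeR, beside 1.63%. Without KO replicate 3, 11 were tested and 11 fell, beside 16.1%. The part of these cells in the kinesin levels was not tested.

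The transcript table lists 170 transcripts of the 40 genes, 34 genes have at least 2, and 28 had enough counts (a mean of 50) for a share of the main transcript. In 1 of 28, Kif18a, the shares did not overlap, beside 11.8% of all genes with enough counts, and they stood at 0.0%, 48.5% and 69.8% in KO libraries and 79.4%, 82.7% and 100% in WT libraries. An exact two-sided permutation test gave p = 0.1, the smallest that 3 against 3 allows, and 1.0 after adjustment over the 28 genes, so no share could pass. Among overlapping shares the largest differences of means were in Kif15, at 18.7% ± 28.0 in KO and 46.7% ± 18.2 in WT, and Kif9, at 14.97% ± 15.4 in KO and 39.0% ± 17.5 in WT (SD, n = 3 each). The Kif18a shares rest on 46, 46 and 158 counts in KO libraries and 146, 104 and 112 in WT libraries.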

How the data were processed

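The authors deposited a gene table and a transcript table, each with estimated counts and TPM per library. The labels name STAR 2.7.5a, featureCounts 2.0.0 and DESeq2 1.28.1, but the tables have Entrez and RefSeq identifiers and 12.9% of the deposited estimated counts are not whole, so the program that made them is not given in the sources used here. Of the kinesins, 9 had fractional counts, which can reflect reads shared with other genes. The deposited TPM values are scaled by the authors for length and depth.

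Estimated counts, rounded to integers, were tested with edgeR 4.0.16 in R 4.3.3 with the package data.table (1.17.8): filterByExpr with a minimum count of 10 and a minimum total of 15, TMM scaling, the quasi-likelihood test of KO against WT with 3 libraries each, and Benjamini-Hochberg adjustment over 13692 genes. Genes called here as risen or fallen had an adjusted p below 0.05. CPM used TMM-scaled library sizes. Alternatives used limma 3.58.1 and DESeq2 1.42.0, other scalings and filters, a replicate block and leaving out libraries. Transcript shares (a mean of at least 50 counts) were compared by exact permutation. The code was tested on simulated data. The FPKM columns were not used. All 40 genes matched a RefSeq position in GRCm38.p6 (mm10). The kinesins, the gene lists and the named genes were chosen with earlier results of these data known. Named genes are all mitotic kinesins, those called or with groups that do not overlap, and the most abundant of each role, with some others named after their values were seen. The main fit did not treat libraries of the same replicate number as pairs, and whether they are pairs was not settled.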

Additional observations from a re-analysis of the deposited data

How the results depend on the processing

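With all 6 libraries 1 kinesin was called higher and 0 lower, and 0 of the 11 mitotic kinesins were lower. These counts were the same under limma-voom, the Wald test of DESeq2, its size factors in edgeR, library size only, both filters and robust quasi-likelihood. With the replicate number as a block 0 were higher and 0 lower, and Kif21b kept a log2 fold change of 1.36 with an edgeR adjusted p of 0.0602. In that fit 1 of all 13692 genes tested was higher and 4 were lower. Deviations of same-numbered libraries correlated at -0.14, 0.21 and 0.24. Those of differently numbered libraries ran from -0.26 to 0.26, so pairing by number was neither shown nor excluded. With library quality weights in limma-voom 3 were higher and 12 lower, 11 of them mitotic. Of all 13692 genes tested, 1918 were higher and 2389 lower in that fit. Leaving out 1 library at a time gave 0 to 3 higher, 0 to 12 lower and 0 to 11 mitotic lower, the most without KO replicate 3. Without WT replicate 2 and KO replicate 3 together 3 were higher and 14 lower, 11 of them mitotic. Of all 13804 genes tested, 2416 were higher and 3000 lower there. Of 12 tubulins, 2 fell with all libraries and 0 with the replicate block, where 4 of all genes fell. Shares of the second transcript separated the groups in 2 of 28 genes, Kif18a and Kif20b, in place of 1. Kif18a has only 2 transcripts, so its second share repeats the result of its first. The rate over all genes was computed only for the main transcript, at 11.8%. Estimates close to 0 changed sign. Under quality weights, and without both libraries, Kif1c turned to -0.017 and -0.035, Kif5b to -0.049 and -0.088, and Kif7 to 0.040 and 0.072. With library size only Kifc3 turned to 0.017. Over the fits that left out 1 library, log2 fold changes ran from -0.010 to 0.086 for Kif1c, -0.023 to 0.173 for Kif5b, -0.149 to 0.031 for Kif7, -0.068 to 0.082 for Kifc3, -0.708 to 0.018 for Kif24 and -1.53 to 0.016 for Kif18b. The causes were not tested. With all 6 libraries the SEs of the mitotic kinesins were 0.482 to 0.600. Kif12, Kif17, Kif19a, Kif27 and Kif28 have too few counts for small differences to be detectable.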
